A study of Mus musculus with 2 samples.

Results

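The nucleolar ribosome assembly genes described here are 10 of the 31053 gene rows that both mouse libraries share: Gnl3, Eef1e1, Rrs1, Ncl, Npm1, Nop56, Nop58, Fbl, Nolc1 and Dkc1. They were taken by symbol, and each symbol named 1 row. The set was chosen by measured values of these data: Gnl3 and Eef1e1 were known to be among the genes with the smallest ratios between the libraries in neutrophils, and the others were added as genes of the same process. The ratios between the libraries below are therefore a description and were not tested. Eef1e1 does not answer to the name of the set, since its product is a scaffold subunit of the cytoplasmic complex of aminoacyl-tRNA synthetases.

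Ribosomes are built in the nucleolus, where RNA polymerase I copies the ribosomal RNA genes and the precursor RNA is cut, chemically modified and folded with ribosomal proteins. Small nucleolar ribonucleoproteins (snoRNPs) guide the modification: those of the box C/D class add methyl groups, and those of the box H/ACA class turn uridine into pseudouridine. Neutrophils mostly stop making ribosomes as they mature in the bone marrow, and a mature neutrophil carries little nucleolar material. Macrophages keep a visible nucleolus and a larger protein output.

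The cells came from eyes of C57BL/6 mice injected with zymosan, a yeast cell wall preparation that sets off sterile inflammation. There were 2 groups of 1 library each: mice given antiserum against the chemokine receptor CXCR2 (aCXCR2), and mice given normal serum (NRS). Cells came from the vitreous together with rinsings of the retina, were enriched with magnetic beads against Ly6G, a surface protein of neutrophils, and had their RNA counted by unique molecular identifiers (UMIs) with the 10x Chromium kit for transcript 3′ ends. The number, age and sex of the mice behind a library are not given in the sources used here. With 1 library a group there is no replicate: no p-value is given, and the intervals (95%, exact) cover counting error only.

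The aCXCR2 library kept 4826 cells with a median of 10383.5 UMIs, and the NRS library kept 5655 cells with a median of 4759 UMIs. Of the kept barcodes, 53 sequences occurred in both libraries. Cells were clustered without the 10 genes and without the other ribosome assembly genes, and a cluster was called by a cell type only where its markers carried the name. Of 19 clusters, 8 were neutrophil-like (2567 cells in aCXCR2 and 2598 in NRS), 4 macrophage-like (1702 and 585 cells) and 2 photoreceptor-like (274 and 826 cells). A large cluster led by Itpr2, Gadd45b and Gdf15, and high in Ctsk, stayed unnamed because its neutrophil score of 0.19 was under the limit of 0.25. It held 100 cells in aCXCR2 and 1150 in NRS, it is called the Gdf15-Ctsk cluster, and values with it are given beside those without it. Ly6g itself was low in much of the sort: it stood at 260.2 CPM (UMIs of the gene per 1000000 UMIs) in the neutrophil-like cluster led by Retnlg, but at 1.62 CPM in aCXCR2 and 0.558 CPM in NRS in the Gdf15-Ctsk cluster.

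Promoter sequences are shown for the GTPase gene Gnl3 and for the partner genes Nop56 and Nop58, since Nop56 and Nop58 are partners in one particle and Gnl3 had one of the widest ranges over clusters. Each runs from 250 bases before to 50 bases after the transcript start, 5′ to 3′ on the strand of the gene, as listed by RefSeq on GRCm38.p6. Capitals mark every match, on either strand and with overlaps allowed, of the 4 motifs described after the sequences, so that a stretch in capitals can read as the reverse complement of its motif. Gnl3 is given from chr14:31019082-31019381 (minus strand), Nop56 from chr2:130274162-130274461 (plus strand) and Nop58 from chr1:59684756-59685055 (plus strand).
Gnl3: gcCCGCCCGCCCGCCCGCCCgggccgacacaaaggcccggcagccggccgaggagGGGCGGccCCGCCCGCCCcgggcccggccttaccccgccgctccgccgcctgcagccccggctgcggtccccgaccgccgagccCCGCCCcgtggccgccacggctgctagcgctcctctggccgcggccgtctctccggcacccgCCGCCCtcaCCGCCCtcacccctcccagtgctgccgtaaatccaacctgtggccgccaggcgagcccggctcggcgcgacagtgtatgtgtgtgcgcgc
Nop56: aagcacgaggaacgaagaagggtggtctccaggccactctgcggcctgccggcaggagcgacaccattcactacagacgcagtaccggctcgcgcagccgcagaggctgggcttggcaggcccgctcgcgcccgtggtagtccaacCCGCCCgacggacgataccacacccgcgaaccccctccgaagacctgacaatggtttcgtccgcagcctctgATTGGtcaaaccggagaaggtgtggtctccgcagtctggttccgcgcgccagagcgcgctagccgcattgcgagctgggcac
Nop58: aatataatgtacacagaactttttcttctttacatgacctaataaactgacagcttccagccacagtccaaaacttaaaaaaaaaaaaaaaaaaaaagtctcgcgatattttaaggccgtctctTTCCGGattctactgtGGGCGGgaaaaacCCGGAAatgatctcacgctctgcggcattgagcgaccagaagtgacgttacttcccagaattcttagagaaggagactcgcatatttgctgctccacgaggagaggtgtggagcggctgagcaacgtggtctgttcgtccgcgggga

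The set of promoter sequences used here held 7 of the 10 genes, namely Gnl3, Eef1e1, Ncl, Nop56, Nop58, Nolc1 and Dkc1. It had no entry for Rrs1, Npm1 and Fbl. GGGCGG, the core of the box bound by Sp1 and related factors, was in 6 of the 7, against 38.2% of all 27025 genes with a promoter in the set. It was not particular to the 10 genes: in the other gene lists described below its share ran from 61.1% (RNA polymerase I) to 88.9% (proliferation). Gnl3 held 10 copies, some of them overlapping. CACGTG, the letters that the MYC and MAX dimer binds best, was in 0 of the 7, against 8.09% of all these genes. Of the other ribosome assembly lists described below, it was in 28.2% of 39 small subunit processome genes and in 24.4% of 45 large subunit assembly genes. It was in 0 of 10 partners of the box C/D and H/ACA proteins, so its absence was not particular to the set. CCGGAA, the core of sites bound by ETS family factors, was in Nop58 and Nolc1, against 16.7% of all genes with a promoter. CCAAT was in Eef1e1, Nop56 and Dkc1, against 41.1%. A match is a string of letters and not a measured binding site.

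In neutrophil-like cells the 10 genes summed to 284 CPM in aCXCR2 and 679 CPM in NRS, a log2 ratio of -1.26 (interval -1.31 to -1.21). Of the 10, 8 were at least 2-fold lower in aCXCR2 and 0 were higher by that fold. Of all 7189 genes that reached 10 CPM in either library, 19.1% were lower by 2-fold or more and 2.16% higher (1370 and 155 genes), with a median log2 ratio of -0.55. All 10 genes passed the minimum, but Eef1e1, Rrs1 and Dkc1 did so through NRS alone and were bound to lie lower in aCXCR2. The count and the ratio rest on scaling by total UMIs: with TMM factors, which moved the median of all genes by 0.68, the ratio of the sum was -0.62 and 4 of 9 measured genes were 2-fold lower, beside 3.27% of all genes lower and 7.95% higher (227 and 552 of 6942). Median of ratios factors gave -0.56 and 3 genes, beside 2.65% of all genes lower. With the Gdf15-Ctsk cluster counted in, the sum was 304 CPM in aCXCR2 and 849 CPM in NRS (log2 ratio -1.48), and 9 of the 10 genes were 2-fold lower, beside 26.2% of all genes lower and 3.07% higher. With the cells of highest doublet score left out of these clusters, the ratio was -1.25 and 8 of 10 genes were lower, beside 19.1% of all genes. Where the remaining cells were clustered anew, a Wfdc21 cluster of 142 aCXCR2 and 1012 NRS cells lost its name and left the class. It was larger than the Wfdc21 cluster described below, of 50 aCXCR2 and 697 NRS cells. No cluster then had Siglecf among its leading genes. The neutrophil score of the unnamed Wfdc21 cluster was 0.36, but haemoglobin genes and no neutrophil markers were among its 10 leading genes. The ratio was then -0.90, with 5 of 9 genes lower beside 8.27% of all genes. Without the Retnlg cluster described below it was -0.97, with 5 of 10 lower beside 9.54%.

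**Figure D1:**
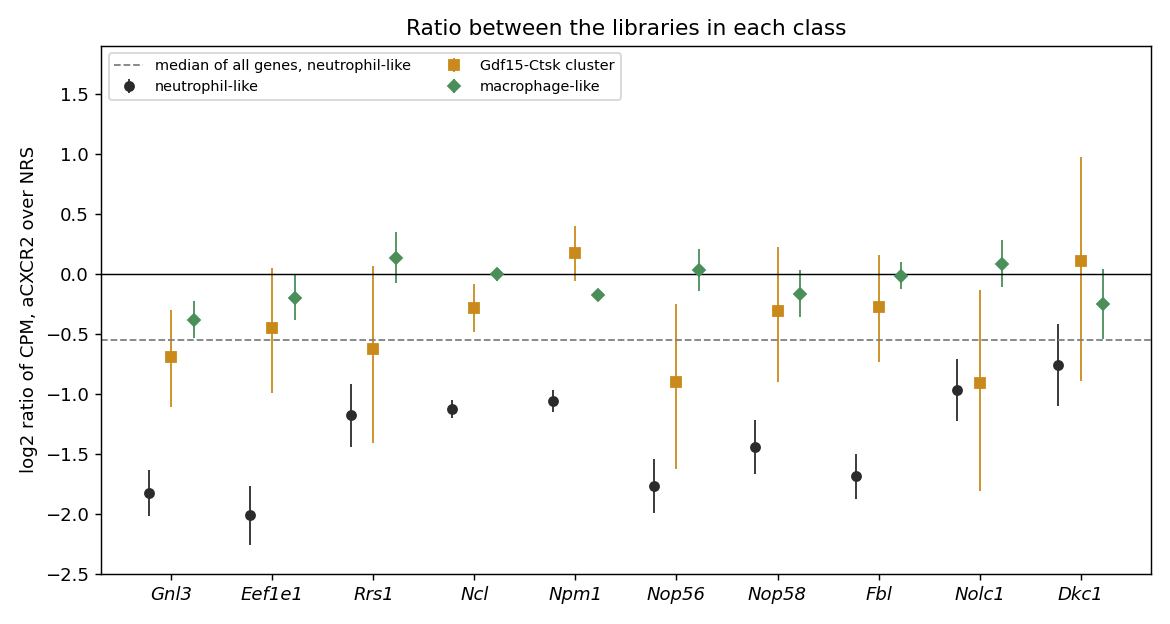
Log2 ratio of CPM, aCXCR2 over NRS, for each of the 10 genes in neutrophil-like cells (circles), the Gdf15-Ctsk cluster (squares) and macrophage-like cells (diamonds), with 95% counting intervals. The dashed line is the median of all genes in neutrophil-like cells (-0.55). Every circle lies below that line, and every diamond lies between -0.38 and 0.13.

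The box C/D genes had some of the lowest ratios of the set. Fbl encodes fibrillarin, the methyltransferase of the box C/D particle, and it stood at 15.7 CPM in aCXCR2 and 50.5 CPM in NRS neutrophil-like cells (359 and 649 UMIs, log2 ratio -1.69, interval -1.88 to -1.5). Nop56, a core protein of the same particle, stood at 11.2 CPM in aCXCR2 and 38 CPM in NRS (log2 ratio -1.77). Its partner Nop58 stood at 12 CPM in aCXCR2 and 32.7 CPM in NRS (log2 ratio -1.44). All of these were lower in aCXCR2, beside a median log2 ratio of -0.55 over all genes.

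The gene of the other modification class, Dkc1, differed least. It encodes dyskerin, the pseudouridine synthase of the box H/ACA particle and a part of telomerase, and it stood at 6.51 CPM in aCXCR2 and 11.1 CPM in NRS (149 and 142 UMIs, log2 ratio -0.76, interval -1.11 to -0.42). Nolc1, whose product binds both classes of snoRNP as a chaperone, stood at 10.3 CPM in aCXCR2 and 20.2 CPM in NRS (log2 ratio -0.97). Neither reached a 2-fold difference, but the intervals of both extended past it.

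Ncl and Npm1 carried most of the UMIs of the set. Ncl encodes nucleolin, which binds precursor ribosomal RNA, and it stood at 117 CPM in aCXCR2 and 256 CPM in NRS (2686 and 3291 UMIs, log2 ratio -1.13, interval -1.20 to -1.05). Npm1 encodes nucleophosmin, a chaperone of nucleolar assembly, and it stood at 77.6 CPM in aCXCR2 and 162 CPM in NRS (log2 ratio -1.06). Both passed the 2-fold mark by a small margin, and the interval of Npm1 included it.

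Gnl3 and Eef1e1, on whose ratios the set was built, had the lowest ratios. Gnl3 encodes nucleostemin, a nucleolar GTPase known from stem and proliferating cells, and it stood at 14.7 CPM in aCXCR2 and 52.3 CPM in NRS (337 and 672 UMIs, log2 ratio -1.83, interval -2.02 to -1.64). Eef1e1 stood at 8.82 CPM in aCXCR2 and 35.6 CPM in NRS (202 and 458 UMIs, log2 ratio -2.01, interval -2.26 to -1.77). Rrs1, known from yeast as a factor that brings the 5S particle into the large subunit, stood at 9.43 CPM in aCXCR2 and 21.4 CPM in NRS (log2 ratio -1.18). Its interval, -1.45 to -0.92, included a 2-fold difference.

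The level differed far more between neutrophil-like clusters than between the libraries. The Retnlg cluster, with 743 aCXCR2 cells, had the lowest sum of the 10 genes, 91.3 CPM (interval 83.7 to 99.4). A cluster led by Prok2, Ccl4 and Cxcl2, in which haemoglobin RNA was also among the leading genes, followed at 150.4 CPM in 234 aCXCR2 cells. Both had under 20 NRS cells, and no NRS value is given for them. The cluster led by Cxcr2, Hdc and Il1r2 stood at 187 CPM in aCXCR2 (33 cells, interval 125 to 268) and 233 CPM in NRS (398 cells), and its aCXCR2 interval overlapped that of the cluster before it.

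Most clusters further up the order held several times as much. The cluster led by Stfa2l1 and Lcn2 stood at 316 CPM in aCXCR2 (1191 cells) and 589 CPM in NRS (53 cells), and the cluster led by G0s2, Il1rn and Csf1 at 341 CPM in aCXCR2 (44 cells) and 433 CPM in NRS (532 cells). Their order differed between the libraries, and in aCXCR2 their intervals overlapped. The cluster with Prok2, Hcar2 and the heat shock genes Hspa1a and Hspa1b among its leading genes stood at 673 CPM in aCXCR2 and 769 CPM in NRS, and the Siglecf cluster at 778 CPM in aCXCR2 and 741 CPM in NRS. The intervals of these last clusters overlapped in each library. The former is called the Prok2 and Hcar2 cluster below, but its score for these markers, 0.87, was not the highest. The Prok2, Ccl4 and Cxcl2 cluster scored 1.0, and there the set stood at 150.4 CPM in aCXCR2. A high level of the set is therefore not a trait of all cells with these markers. At the top of the class, the Wfdc21 cluster stood at 1000.4 CPM in aCXCR2 (50 cells) and 969 CPM in NRS (697 cells). Its neutrophil score, 0.28, was the lowest of the named clusters.

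The Gdf15-Ctsk cluster stood above every named neutrophil-like and macrophage-like cluster, at 1039.7 CPM in aCXCR2 (interval 961 to 1123) and 1255 CPM in NRS (1226 to 1286), although in aCXCR2 its interval overlapped that of the Wfdc21 cluster. With libraries pooled, the Retnlg cluster stood at 91.4 CPM and the Gdf15-Ctsk cluster at 1233 CPM (log2 -3.75, interval -3.88 to -3.63). The 10 genes were left out of the clustering, but genes that vary with them were not, so this difference is a description of the clusters. The cytosolic ribosomal protein genes followed the same pattern, at 22501 CPM in the Retnlg cluster and 99901 CPM in the Gdf15-Ctsk cluster of the aCXCR2 library. The granule protein genes S100a8 and S100a9 took the opposite course, with S100a8 at 126359 CPM in the Retnlg cluster and 3470 CPM in the Gdf15-Ctsk cluster of that library. Since CPM are shares of the total, so large a share of S100a8 and S100a9 lowers the CPM of every other gene in the Retnlg cluster, and absolute RNA per cell was not measured.

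**Figure D2:**
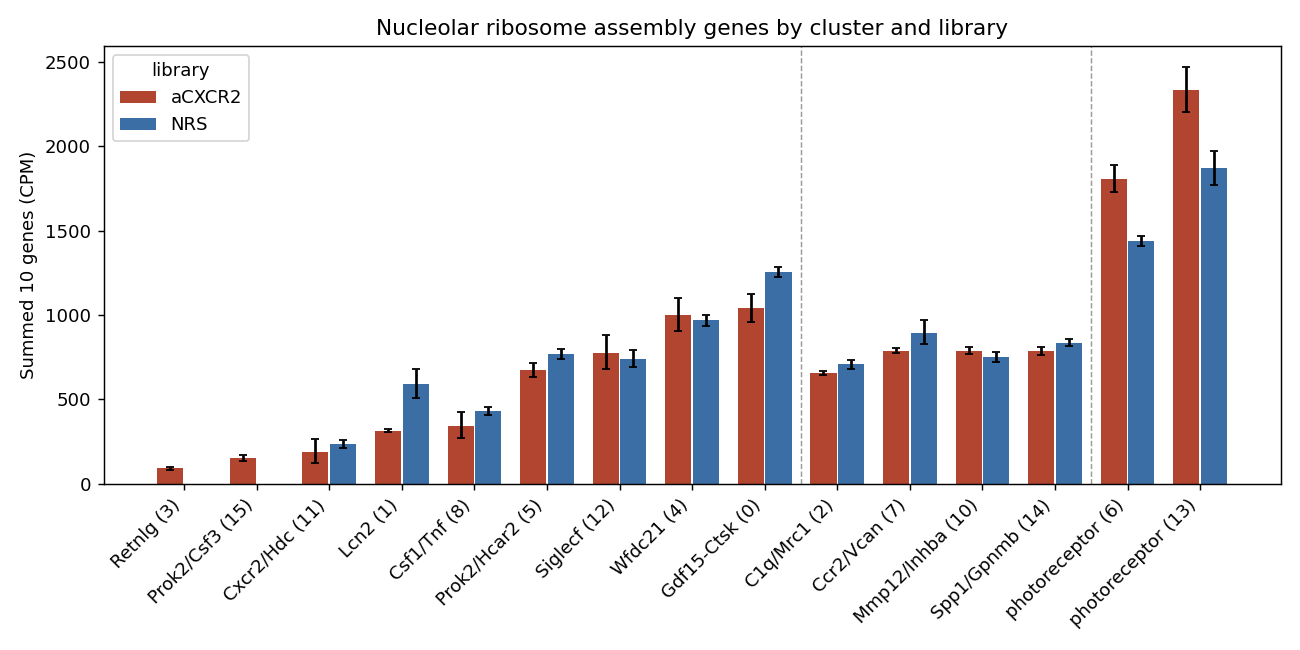
Summed CPM of the 10 genes in each neutrophil-like cluster and the Gdf15-Ctsk cluster (left of the first dashed line), each macrophage-like cluster (middle) and each photoreceptor-like cluster (right), for aCXCR2 (left bar) and NRS (right bar), in units of at least 20 cells. Error bars are 95% Poisson intervals and cluster numbers stand in brackets. Among neutrophil-like clusters the bars run from 91.3 CPM to 1000.4 CPM, and macrophage-like clusters lie between 657 and 896 CPM.

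Single genes spanned different ranges over the 14 units of neutrophil-like and Gdf15-Ctsk cells with at least 50 cells in a library. Eef1e1 ranged most, with 1.04 CPM in the Retnlg cluster of aCXCR2 and 77.2 CPM in the Gdf15-Ctsk cluster of NRS, a 74.5-fold span that rests on 6 UMIs at its low end. Gnl3 spanned 60.5-fold, with 2.42 CPM in the Retnlg cluster of aCXCR2 and 146 CPM in the Gdf15-Ctsk cluster of NRS. Rrs1 spanned 42.2-fold, Nop58 and Nolc1 26.5-fold each, Fbl 22.6-fold, Nop56 21.4-fold and Npm1 18.4-fold. Ncl spanned 10.1-fold and Dkc1 6.11-fold. For 7 of the 10 genes the low end was the Retnlg cluster, for Nop58 and Nolc1 it was the Prok2, Ccl4 and Cxcl2 cluster, and for Dkc1 it was the Siglecf cluster, from 1 UMI.

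Gnl3 did not follow the order of the sum throughout. In the Prok2 and Hcar2 cluster it stood at 71.8 CPM in aCXCR2 and 105 CPM in NRS, above its 38.3 CPM in aCXCR2 and 58.5 CPM in NRS in the Wfdc21 cluster, where the sum of the set was higher. The intervals of the NRS values did not overlap. The Prok2 and Hcar2 cluster and the Gdf15-Ctsk cluster were also those with the most Gdf15, a cytokine gene of the stress response, at 609.5 CPM and 459 CPM in NRS and 221 CPM and 289 CPM in aCXCR2.

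**Figure D3:**
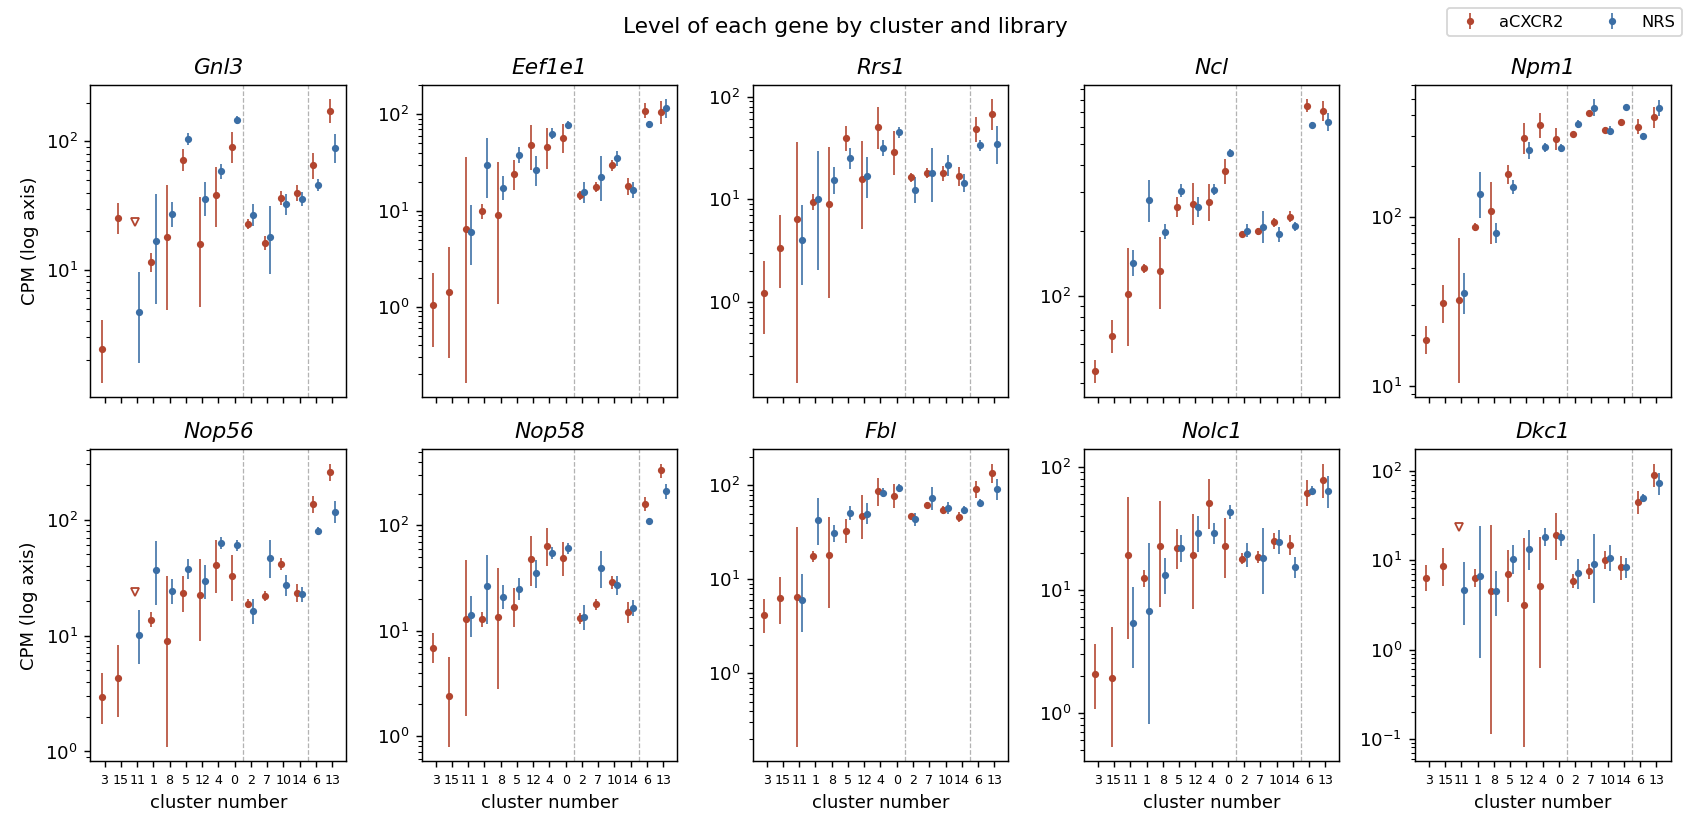
CPM of each gene (log axis) by cluster number, for aCXCR2 (left point) and NRS (right point), with 95% Poisson intervals, and open triangles mark units with 0 UMIs, at the upper limit of the interval. Dashed lines part neutrophil-like and Gdf15-Ctsk cells (left), macrophage-like cells (middle) and photoreceptor-like cells (right). Left of the first dashed line, all genes but Dkc1 span 10.1-fold or more between the lowest and the highest unit of at least 50 cells.

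Within the clusters that could be compared, the libraries were closer than over the class. Genes that vary with the 10 took part in the clustering, so cells of a cluster were partly bound to be alike in the set. The Retnlg cluster and the Prok2, Ccl4 and Cxcl2 cluster, with 743 and 234 aCXCR2 cells, had too few NRS cells to compare. Of the named neutrophil-like clusters, 4 had at least 50 cells in both libraries. The log2 ratio of the summed genes was 0.05 in the Wfdc21 cluster (interval -0.11 to 0.20, 50 aCXCR2 cells). In the Siglecf cluster it was 0.07 (-0.14 to 0.27, 81 aCXCR2 cells) and in the Prok2 and Hcar2 cluster -0.19 (-0.30 to -0.08, 191 aCXCR2 cells). In the Stfa2l1 and Lcn2 cluster it was -0.90 (-1.12 to -0.68), where NRS had 53 cells and 177 UMIs of the set and the median of all genes was -0.35. In the Gdf15-Ctsk cluster it was -0.27 (-0.39 to -0.16). When these 4 named clusters were given equal weight in both libraries, an alternative chosen after seeing the data, the ratio of the sum was -0.15 and 1 of the 10 genes was 2-fold lower, beside 3.72% of all genes. The class was made up of different clusters in each library: the Retnlg and the Stfa2l1 and Lcn2 clusters held 743 and 1191 of 2567 cells in aCXCR2 and 11 and 53 of 2598 cells in NRS. A change within cells and a change in which cells were recovered cannot be told apart over the whole class.

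Members went different ways inside these clusters. In the Prok2 and Hcar2 cluster Gnl3 had a log2 ratio of -0.54 (interval -0.88 to -0.21), Nop56 -0.70, Eef1e1 -0.66 and Fbl -0.63, while Rrs1 stood at 39.4 CPM in aCXCR2 and 25.3 CPM in NRS (0.64, interval 0.11 to 1.16) and Npm1 at 179 CPM in aCXCR2 and 149.6 CPM in NRS (0.26, 0.03 to 0.48). In the Wfdc21 cluster Npm1 stood at 347 CPM in aCXCR2 and 258 CPM in NRS (0.43, 0.16 to 0.69). In the Gdf15-Ctsk cluster Gnl3 stood at 90.6 CPM in aCXCR2 and 146 CPM in NRS (-0.69, -1.11 to -0.30), and Nop56 at 32.3 CPM in aCXCR2 and 60.3 CPM in NRS (-0.90, -1.63 to -0.25). Npm1 in that cluster stood at 288 CPM in aCXCR2 and 256 CPM in NRS, and its interval included 0. In the Wfdc21 cluster Gnl3 (-0.61) and Nop56 (-0.62) also lay below 0, with intervals that included 0.

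**Figure D4:**
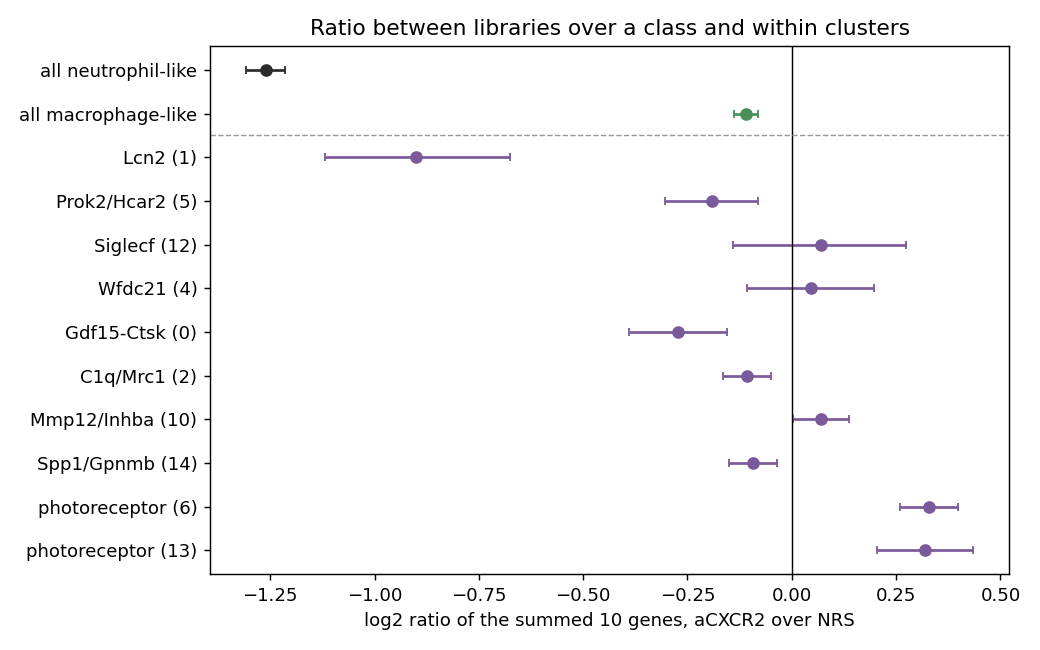
Log2 ratio of the summed 10 genes, aCXCR2 over NRS, over the whole neutrophil-like and macrophage-like classes (top) and within each named cluster and the Gdf15-Ctsk cluster with at least 50 cells in both libraries, with 95% counting intervals. The class value of -1.26 lies further from 0 than each single cluster, of which the Stfa2l1 and Lcn2 cluster is the lowest at -0.90.

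Macrophage-like cells carried the 10 genes at nearly one level in both libraries. The sum was 729.7 CPM in aCXCR2 and 787 CPM in NRS (log2 ratio -0.11, interval -0.14 to -0.08). Of 9 genes with at least 10 CPM, 0 were 2-fold lower and 0 were 2-fold higher, beside 2.48% and 3.01% of all genes. Gnl3 stood at 24.5 CPM in aCXCR2 and 31.9 CPM in NRS (-0.38, -0.53 to -0.23), and Npm1 at 348 CPM in aCXCR2 and 393 CPM in NRS (-0.18). Ncl stood at 202 CPM in aCXCR2 and 203 CPM in NRS, and Fbl at 52.8 CPM in aCXCR2 and 53.4 CPM in NRS.

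The 4 macrophage-like clusters lay close together. The cluster led by C1q genes and Mrc1 stood at 657 CPM in aCXCR2 and 708 CPM in NRS, and the cluster of MHC class II genes and Ccr2 at 790.2 CPM in aCXCR2 and 896 CPM in NRS, where NRS had 38 cells. The Mmp12 and Arg1 cluster stood at 789.7 CPM in aCXCR2 and 753 CPM in NRS, and the Spp1 and Gpnmb cluster at 785 CPM in aCXCR2 and 837 CPM in NRS. The aCXCR2 intervals of the last 3 clusters overlapped. Photoreceptor-like cells had the highest sum of the named classes, 1974 CPM in aCXCR2 and 1476 CPM in NRS, with Nop56 at 174 CPM in aCXCR2 and 82.7 CPM in NRS (log2 ratio 1.07) and Gnl3 at 99.0 CPM in aCXCR2 and 49.5 CPM in NRS (1.0).

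RNA of marker genes of other cell types moved with the libraries as well. In neutrophil-like cells the 16 photoreceptor markers summed to 111 CPM in aCXCR2 and 1144 CPM in NRS, with 15 and 16 of them seen and the cone gene Arr3 at 0 in aCXCR2. Over neutrophil-like clusters the sum ran from 63.8 to 328 CPM in aCXCR2 and from 679 to 1371 CPM in NRS. At the ratio of the 10 genes to these markers in photoreceptor-like cells, that RNA would carry 6.27 CPM of the set in aCXCR2 and 34.5 CPM in NRS, against measured sums of 284 and 679 CPM. The 13 monocyte and macrophage markers were all seen and summed to 993 CPM in aCXCR2 and 1341 CPM in NRS, which would carry 35.2 CPM in aCXCR2 and 26.6 CPM in NRS. In the Retnlg cluster the macrophage markers would carry 31.0 of its 91.3 CPM. These figures take every UMI of the markers as RNA from the other cell type, which was not tested.

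Per cell, the 10 genes took a median of 0.0156% of UMIs in aCXCR2 neutrophil-like cells and 0.0486% in NRS ones. In the Gdf15-Ctsk cluster the medians were 0.0867% in aCXCR2 and 0.111% in NRS, and in macrophage-like cells 0.0700% in aCXCR2 and 0.0748% in NRS. Depth differed, with a median of 7689 UMIs in aCXCR2 and 4544.5 in NRS neutrophil-like cells, so each cell was thinned to 1000 UMIs, which left out 27 cells in aCXCR2 and 99 in NRS. A UMI of any of the 10 genes was then seen in 21.8% of aCXCR2 cells (exact binomial interval 20.2 to 23.5%) and 40.6% of NRS cells (38.7 to 42.6%). Unthinned, the shares were 65.6% in aCXCR2 and 75.6% in NRS. No cell type here should lack these genes, so there is no background share to set beside them. The lowest share of any cluster was 7.96%, in the Retnlg cluster.

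Single genes were seen in few thinned cells. Ncl was seen in 10.8% of aCXCR2 and 19.4% of NRS neutrophil-like cells, Gnl3 in 1.89% of aCXCR2 and 4.44% of NRS cells, and Eef1e1 in 0.630% of aCXCR2 and 3.24% of NRS cells. In the Cxcr2 and Hdc cluster the share for any of the 10 genes was 21.2% in aCXCR2 (33 cells) and 21.6% in NRS, and in the Prok2 and Hcar2 cluster 45.2% in aCXCR2 and 43.1% in NRS. In the Gdf15-Ctsk cluster it was 62.2% in aCXCR2 and 65.1% in NRS, and in macrophage-like cells 51.4% in aCXCR2 and 54.4% in NRS. Intervals overlapped in each of these pairs. In other clusters the share was lower in aCXCR2: 14% in aCXCR2 (43 cells) and 31.2% in NRS in the G0s2, Il1rn and Csf1 cluster, 36.5% in aCXCR2 and 48.4% in NRS in the Siglecf cluster, and 26.1% in aCXCR2 and 35.8% in NRS in the Stfa2l1 and Lcn2 cluster. Their intervals overlapped as well. In the Wfdc21 cluster it was 62% in aCXCR2 and 55.2% in NRS.

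Other genes of ribosome assembly and of the synthetase complex were counted in the same way, on lists drawn up with earlier results of these data known. Over 5 assembly lists and the synthetase complex, 73 of 119 measured genes were at least 2-fold lower and 0 higher, beside 19.1% of all genes lower and 2.16% higher. These counts include genes that passed the minimum through NRS alone and were bound to lie lower in aCXCR2. The median log2 ratio of the lists was -1.12, beside -0.55 over all genes. With TMM factors 8 of 113 were 2-fold lower, beside 3.27% of all genes, with a median of -0.46 beside 0.12 over all genes. With the minimum of 10 CPM set on the mean of both libraries, which does not favour either one, 64 of 108 were 2-fold lower, beside 16.7% of all genes lower and 2.05% higher. The count was 74 of 119 with the cells of highest doublet score left out, beside 19.1% of all genes. It fell to 12 of 105, beside 8.27%, where the remaining cells were clustered anew. There a larger Wfdc21 cluster, of 142 aCXCR2 and 1012 NRS cells, lost its name. In the clusters as reported, the count was 34 of 119 without the Retnlg cluster, beside 9.54% of all genes. Without the Wfdc21 cluster it was 31 of 113, beside 10.9%.

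Partners of the box C/D and H/ACA proteins had 7 of 9 measured genes lower, beside 19.1% of all genes, and a median of -1.12. Snu13, which binds the kink-turn of box C/D RNAs, stood at 70.6 CPM in aCXCR2 and 152 CPM in NRS (log2 ratio -1.11). Nhp2, a partner of dyskerin, stood at 32.1 CPM in aCXCR2 and 74.8 CPM in NRS (-1.22). Gar1, another partner of dyskerin, had a ratio of -1.22 and the assembly ATPase Ruvbl1 one of -1.21. Gar1 passed the minimum through NRS alone and was bound to lie lower in aCXCR2. Dkc1 itself had a ratio of -0.76, and its interval, -1.11 to -0.42, overlapped those of Nhp2 (-1.36 to -1.08) and Gar1 (-1.54 to -0.91).

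Genes of the small subunit processome, the particle that cuts the early precursor, had 24 of 34 measured members lower, beside 19.1% of all genes, and a median of -1.15. Utp3, the most abundant, stood at 43.7 CPM in aCXCR2 and 88.5 CPM in NRS (-1.02). The lowest ratios were those of Nop14 (-1.90), Rrp9 (-1.86) and Pno1 (-1.68), which passed the minimum through NRS alone and were bound to lie lower. Large subunit assembly genes had 32 of 48 members lower, beside the same 19.1%, and a median of -1.18. Eif6, which keeps the subunits apart until the large one is complete, stood at 89.2 CPM in aCXCR2 and 150.4 CPM in NRS (-0.75). Ppan (-1.70), Pelp1 (-1.69) and Nop16 (-1.67) had the lowest ratios of that list, and they too passed the minimum through NRS alone.

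RNA polymerase I genes had 4 of 16 measured members lower, with a median of -0.88. This count is not far above the 19.1% of all genes, and several subunits on the list, Polr1d among them, are shared with other polymerases. Polr1d stood at 124 CPM in aCXCR2 and 198 CPM in NRS (-0.68), and the ribosomal DNA transcription factors Tcof1 (-1.22) and Rrn3 (-1.19) and the subunit gene Cd3eap (-1.04) had the lowest ratios, followed by Taf1d (-1.01). Of the synthetase complex that holds the product of Eef1e1, 4 of 9 genes were lower, with a median of -0.99. The glutamyl-prolyl synthetase gene Eprs stood at 21.6 CPM in aCXCR2 and 57.9 CPM in NRS (-1.42), Mars had a ratio of -1.35, Kars one of -1.14 and Rars one of -1.02. Of the snoRNA host genes, whose introns hold snoRNAs, 2 of 3 were lower, namely Snhg12 (-1.32) and Snhg6 (-1.01), while Snhg9 had a ratio of -0.82. Rrn3, Mars and Snhg12 passed the minimum through NRS alone and were bound to lie lower in aCXCR2.

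**Figure D5:**
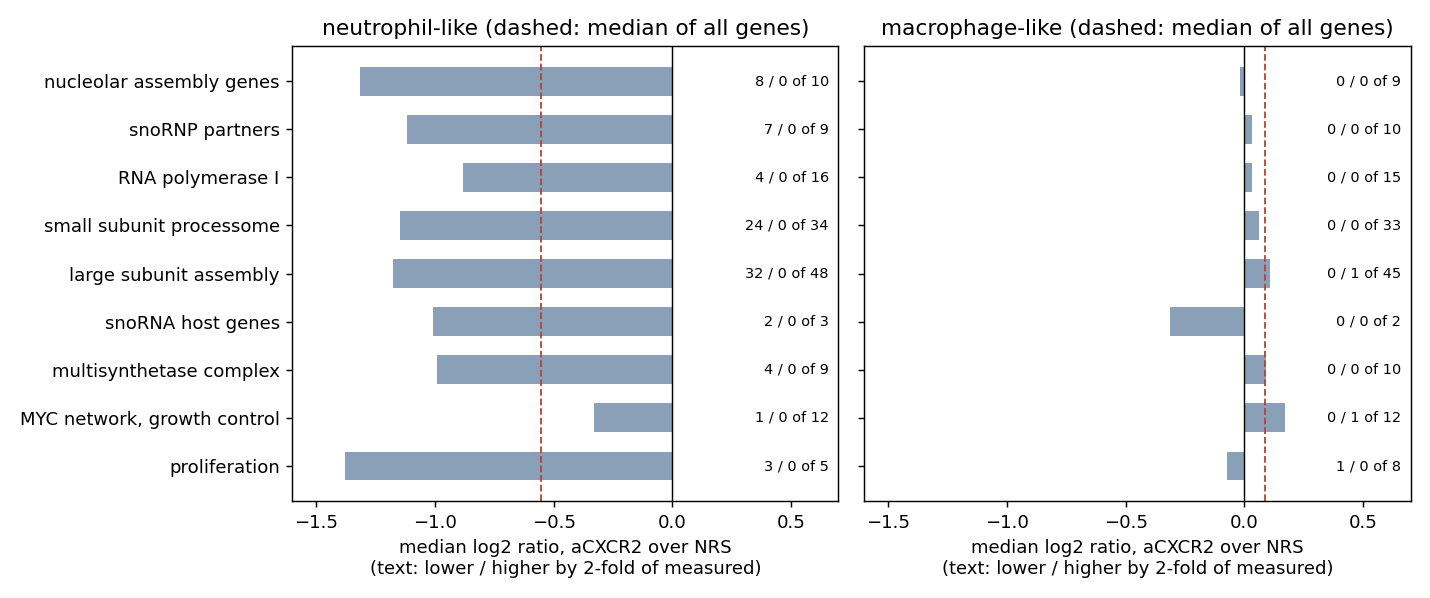
Median log2 ratio, aCXCR2 over NRS, for each gene list in neutrophil-like cells (left) and macrophage-like cells (right), over genes with at least 10 CPM in 1 library. The figures beside the bars give how many genes were 2-fold lower and 2-fold higher of those measured. In neutrophil-like cells the 10 genes lie at -1.31, beside -0.55 over all genes. The 5 other assembly lists and the synthetase complex lie there between -0.88 and -1.18. In macrophage-like cells 0 genes of these lists are 2-fold lower, beside 2.48% of all genes.

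In macrophage-like cells 0 genes of the same lists were 2-fold lower, beside 2.48% of all genes. Of the large subunit genes 1, Tma16, was 2-fold higher, beside 3.01% of all genes. Of 12 measured genes of the MYC network and growth control, 1 was 2-fold lower in neutrophil-like cells, beside 19.1% of all genes, with a list median of -0.33. It was Rptor of the mTOR complex, at 4.72 CPM in aCXCR2 and 15 CPM in NRS, which passed the minimum through NRS alone. Myc itself had 0 or 1 UMI per library in each neutrophil-like cluster and in the Gdf15-Ctsk cluster, among those with at least 20 cells. Mxd1, which competes with MYC for MAX, was the most abundant gene of the list and stood at 813 CPM in aCXCR2 and 548 CPM in NRS (0.57). By cluster it stood at 1499 CPM in the Retnlg cluster of aCXCR2, against 116 CPM in aCXCR2 and 104 CPM in NRS in the Gdf15-Ctsk cluster.

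Of 5 measured proliferation genes 3 were lower: Mki67 (3.49 CPM in aCXCR2 and 10.4 CPM in NRS), Pcna (13.7 and 39.1 CPM) and Mcm7 (4.11 and 10.7 CPM). Mki67 and Mcm7 passed the minimum through NRS alone and were bound to lie lower in aCXCR2, and 19.1% of all genes were lower. The summed level of the list was 708 CPM in aCXCR2 and 704 CPM in NRS, since the abundant chromatin gene Hmgb2 stood at 608 CPM in aCXCR2 and 475 CPM in NRS, so its median and its sum differed in sign. In the Gdf15-Ctsk cluster Mki67 stood at 22.6 CPM in aCXCR2 and 19.7 CPM in NRS, and Top2a at 0 and 1.68 CPM.

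Over 30 units of cluster and library with at least 50 cells, the genes whose log2(CPM + 10) was most like that of the summed set, out of 7642 genes, were Ran (Pearson r 0.976), Mrps7 (0.973), Snrpd1 (0.971), Psmc5 (0.970), Eprs (0.968) and Cct3 (0.968). They encode a nuclear transport GTPase, a mitochondrial ribosomal protein, a splicing protein, a proteasome subunit, a tRNA synthetase and a chaperonin subunit. Units of one library share its depth and its free RNA, so r is a description. Each of the 10 genes had an r with the sum, of which it is a part, between 0.682 (Dkc1) and 0.953 (Fbl), with Gnl3 at 0.744. Among pairs, Nop58 and Nop56 were most alike (0.950) and Dkc1 and Npm1 least (0.40) over all 30 units. Over the 14 neutrophil-like and Gdf15-Ctsk units Fbl and Eef1e1 were most alike (0.974), Nop58 and Nop56 had 0.881, and Dkc1 and Npm1 were again least alike (0.398). The gene most opposite to the sum was Entpd1 (-0.868), an enzyme gene that degrades extracellular ATP.

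Sequence copies could touch some of these counts. Transcripts of Npm1 matched 8 other annotated genes at 90% identity or more over at least 300 bases, all pseudogenes, with up to 97.4% identity. Rrs1 had 3, Nop56 2 (up to 99.7%), Dkc1 2 and Ncl 1. None of these copies is a row of the feature table, so counts of the 5 genes are uncertain by reads that fit more than 1 place, and the other 5 genes had no such copy. In the GENCODE M21 annotation (GRCm38) Gnl3 (ENSMUSG00000042354) lies at chr14:31012433-31019152, Eef1e1 at chr13:38644207-38659058, Fbl at chr7:28169710-28179269 and Dkc1 at chrX:75095854-75109777.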

How the data were processed

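Whole-number UMI counts were deposited for every gene and barcode, and the file headers name no scaling. As tools, the submitters' processing notes list Cell Ranger and Seurat with no version, while the headers of the matrices carry software version 3.0.0. The notes list the human build GRCh38, but the feature tables hold mouse Ensembl IDs, with the mouse build not given in the sources used here. Of 31053 IDs, 30934 were in GENCODE M21. The aCXCR2 library held 85748842 UMIs over 5551 barcodes and the NRS library 61386486 over 7314.

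Kept barcodes (4826 and 5655) had 500 UMIs or more, 200 genes or more and no more than 10% mitochondrial UMIs, which removed 13.1% of aCXCR2 and 22.7% of NRS barcodes. Scrublet, in scanpy 1.11.5, called 4 and 0 cells as doublets and so has not worked. Doublets remain among the cells, and alternatives removed the 186 and 256 highest scores, with and without clustering anew. Cells of both libraries were clustered on 2000 variable genes (30 principal components, 15 neighbours, leidenalg 0.10.2, resolution 1, no library correction), leaving out the 10 genes and the assembly lists. Clusters were named by marker scores scaled over clusters: at least 0.25, at least 0.1 above the next class, the next class under 0.4, and at least 20 cells. Haemoglobin, platelet and inner neuron markers could not give a name. Haemoglobin genes could take one away: a cluster stayed unnamed where its 10 leading genes held more markers of any other class than of its own. A name was also withheld where few markers of the class were detected, or where depth was low and none was among the leading genes. This scoring rule and the settings of the clustering were chosen after the data were seen.

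For each class and library the counts were added up and divided by all UMIs there (CPM). UMIs count 3′ ends, so levels were not divided by gene length. Intervals (95%) are exact Poisson for CPM, Clopper-Pearson for shares and conditional for ratios. A gene was counted as lower or higher at 2-fold with at least 10 CPM in 1 library. The code for ratios and their intervals was checked on simulated counts, which is no test of the ratios reported. edgeR 4.0.16 (R 4.3.3) gave the TMM factors, and other steps used numpy 2.4.6, scipy 1.17.1 and blastn 2.17.0+. Alternatives changed scaling, cell filter, doublets, clustering, weighting, clusters in the class, fold, CPM minimum and thinning depth.

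The 10 genes and all gene lists were chosen with earlier results of these data known. Named genes are the 10, Myc, the most abundant gene and up to 3 genes with the largest absolute log2 ratio of each list in neutrophil-like cells, and the 6 genes most alike to the sum. Taf1d, Rars, Tma16, Entpd1, Gdf15, S100a8, S100a9, Ly6g and Top2a were named outside that rule, after their values were seen.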

Additional observations from a re-analysis of the deposited data

Results flagged for a closer look

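The summed 10 genes had a log2 ratio of 0.42 (interval 0.36 to 0.48), aCXCR2 over NRS, in photoreceptor-like cells, against -1.26 in neutrophil-like cells. It was marked because the libraries differed in opposite directions in these classes, and with 1 library a group the difference between the classes was not tested. In the 2 photoreceptor-like clusters the ratio was 0.33 (139 aCXCR2 and 554 NRS cells) and 0.32 (135 and 272 cells), and the median of all genes was 0.08 and 0.32 there.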

How the results depend on the processing

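No paired analysis was possible because each group has 1 library. The summed 10 genes in neutrophil-like cells had a log2 ratio of -1.26, with 8 genes 2-fold lower. The ratio was -0.62 with TMM factors (4 genes, and 8 instead of 73 genes of the other lists). With median of ratios factors it was -0.56 (3 and 3). With cells weighted equally it was -1.12 (5), beside 1125 of all 7164 genes lower. Cells clustered and named anew gave -0.90 without the highest doublet scores (5), -1.14 at resolution 0.5 and -1.11 at resolution 2, where the class held 1507, 2287 and 2175 NRS cells instead of 2598. Leaving out a cluster gave -1.48 (1), -0.97 (3, with 5 genes), -1.03 (4), -1.34 (5), -1.41 (8), -1.38 (11) and -1.20 (15). A 1.5-fold mark gave 10 genes and 112 of the lists, beside 3436 of all 7189 genes lower. A minimum of 50 CPM gave 4 of 4 and 16, beside 357 of all 3084 genes lower. Alternatives chosen after seeing the data follow. The ratio was -1.25 without the highest doublet scores in the clusters as reported (8), and -1.48 with the Gdf15-Ctsk cluster. It was -1.08 with totals free of S100a8 and S100a9 (5 and 45), beside 868 of all 7326 genes lower. With totals of cytosolic ribosomal protein genes it was -0.34 (1 gene), beside 110 of all 6848 genes lower and 1057 higher. It was -0.15 with equal weight to shared clusters (1), where Rrs1 (0.47) and Npm1 (0.19) turned sign. Of 210 values of single genes over 21 alternatives, 205 stayed below 0. By size, 142 stayed near the value reported and 66 moved away from it, while 2 turned sign from beyond 2-fold. The median of all genes was itself -0.55 as reported. The macrophage-like ratio, -0.11, was -0.14 with cells weighted equally, and 0 genes passed 2-fold in 9 alternatives. The Retnlg cluster over the Gdf15-Ctsk cluster, -3.75, was -3.62 with the stricter filter, -2.29 at resolution 0.5 and -3.95 at resolution 2. Shares of neutrophil-like cells were 12.8% in aCXCR2 and 25.2% in NRS at 500 UMIs, and 34.6% and 61.0% at 2000. Beyond scaling and which clusters are counted, the cause of these moves was not tested. With 1 library a group, neither animals nor handling can be told apart from the treatment.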
